A study of Mus musculus with 10 samples.

Results

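Collagens, laminins and the other named proteins of the basement membrane were followed in mouse prostate cancer organoids after chemical and genetic targeting of EZH2. The rule took every gene row whose symbol reads COL, digits, A, digits, or LAMA, LAMB or LAMC with a digit, together with NID1, NID2, HSPG2, AGRN, FBLN1, FN1 and SPARC. It found 62 of the 24016 genes present in both deposited tables: 44 collagen genes, 11 laminin genes and the 7 named ones. COL4A3BP, which encodes a ceramide transfer protein and only begins like a collagen symbol, was left out.

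RNA-seq was done on 10 libraries of 3-dimensional organoid cultures from the dorsal-lateral prostate lobe of C57BL/6 mice aged 8 weeks, which overexpress cMYC and carry floxed EZH2 alleles and PSA-CreERT2, a Tamoxifen-inducible Cre recombinase under a prostate luminal promoter. All groups, controls included, share these alleles and grew with 10 nM R1881, a synthetic androgen, and RNA was taken 3 days after treatment. For the chemical experiment, DZNep at 1 µM gave 3 libraries and its vehicle DMSO 3. DZNep is an inhibitor of S-adenosylhomocysteine hydrolase used here as the EZH2 inhibitor. For the genetic experiment, Tamoxifen at 1 µM gave 2 libraries and its vehicle ethanol (EtOH) 2. The stated purpose was to compare gene expression between control and EZH2-inhibited organoids. Nothing in the labels ties replicates to separate cultures or animals, so every p-value below reflects spread among libraries that may be technical repeats.

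The basement membrane is the thin sheet of matrix under every epithelium. Laminin trimers, each of an α, a β and a γ chain, form one network and type IV collagen trimers form another, and nidogens and the heparan sulfate proteoglycans perlecan (HSPG2) and agrin (AGRN) link them. In prostate, basal cells rest on this sheet through hemidesmosomes, in which integrin α6β4 and collagen XVII (COL17A1) hold the laminin that contains the α3 and β3 chains (LAMA3, LAMB3), while collagen VII (COL7A1) forms the anchoring fibrils beneath. Fibrillar collagens such as types I and III are made mainly by stromal fibroblasts.

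Values are RPKM, reads scaled to gene length and to the reads mapped in the library, so levels may be compared between genes. Absolute depth is not known from them. EZH2, the targeted gene, measured 30.4, 29.8 and 27.1 RPKM in DMSO, 22.5, 24.2 and 24.8 in DZNep, 27.95 and 33.96 in EtOH, and 32.0 and 33.2 in Tamoxifen. The libraries labelled Tamoxifen were therefore not lower, and a value for the whole gene does not check the deletion of the floxed part. Some libraries stood apart from others of their group with transcript length or base composition. Across 10643 tested genes with a known transcript, the deviation of DMSO 1 from its group mean had a Spearman correlation of -0.497 with length, against 0.198 and 0.455 for DMSO 2 and DMSO 3. The deviation of DZNep 3 had a correlation of -0.522 with G+C share, against 0.364 and 0.291 for DZNep 1 and DZNep 2. In the genetic experiment these correlations lay between -0.107 and 0.107. Genes within a library are not independent replicates. The tested members have long, G+C-rich transcripts (median 6493 bases and 56.1% G+C, against 3306 bases and 49.7% over the genes tested with DZNep). All 16 exceed both medians. Results are therefore also given without DMSO 1 and DZNep 3 and after a correction for G+C share and length.

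Only 16 of the 62 members reached a mean of 1 RPKM over the libraries of a table, the level required for testing, and they were the same 16 in both tables: 7 laminin chains, 6 collagens, AGRN, FN1 and FBLN1. Of the rest, 40 were detected at lower levels and 6 (COL3A1, COL9A1, COL10A1, COL19A1, COL6A6 and LAMA1) were listed at 0 in all 10 libraries. Of those 40, 26 stayed under 0.1 RPKM in every library.

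The most abundant members were COL17A1 and LAMB3, both of the hemidesmosome, and the laminin α5 chain. COL17A1 measured 118, 137 and 141 RPKM in DMSO and 135 and 127 in EtOH, above 97.9% of all genes by its mean over the 5 vehicle libraries. LAMA5, the α chain of the main adult basement membrane laminins, followed at 92.2, 121 and 130.3 RPKM in DMSO and 105 and 111 in EtOH. LAMB3 lay at 91.1, 100.5 and 98.5 RPKM in DMSO. In DMSO neither COL17A1 and LAMA5 nor LAMA5 and LAMB3 could be ordered, since their libraries overlapped. AGRN and LAMB2 (overlapping in DMSO) lay lower, at 24.3 to 32.2 RPKM in DMSO, and then LAMA3 and LAMC1, which overlapped between 18.0 and 23.9. COL18A1, the source of endostatin, measured 12.9 to 14.1 RPKM in DMSO. The type IV collagens COL4A5 and COL4A1 overlapped at 7.01 to 8.92 and 7.04 to 7.94. FN1 (fibronectin), LAMB1 and COL7A1 lay between 2.77 and 5.17 RPKM in DMSO, and FBLN1, a fibulin that binds laminin and nidogen, and COL4A2 between 1.26 and 1.49.

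**Figure D1:**
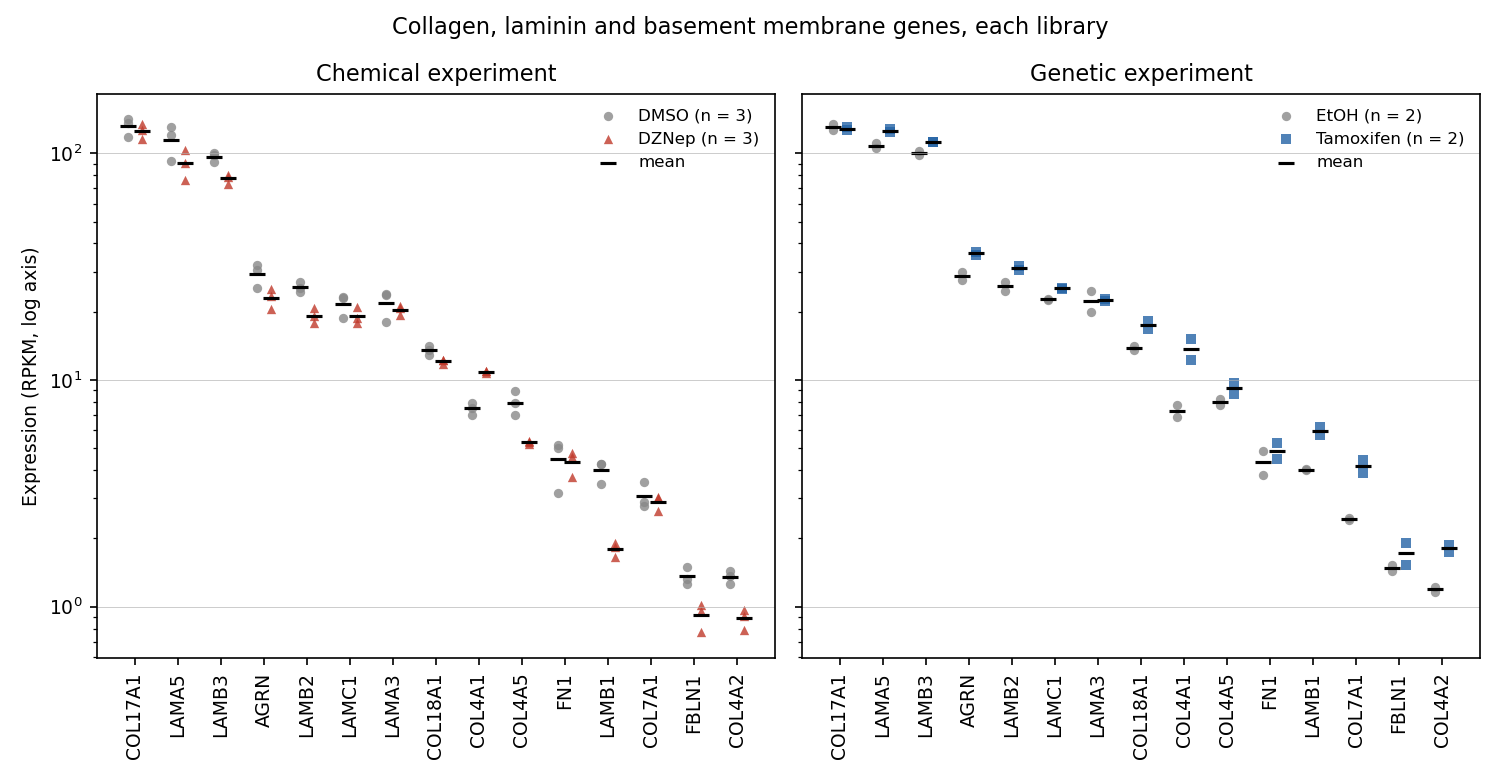
RPKM (log axis) of 15 tested members in each library, controls in grey and treated libraries in colour, with black bars for means (n = 3 each in the chemical and 2 each in the genetic experiment). COL17A1 heads the order near 130 RPKM and COL4A2 ends it near 1, LAMB1 lies lower in DZNep and higher in Tamoxifen than in the controls, and COL4A1 lies higher in both.

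Several linkers and fibrillar collagens were near the limit of detection. NID1 and NID2, which join the laminin and collagen networks, reached at most 0.00439 and 0.00548 RPKM. COL1A1 lay between 0.00636 and 0.130 RPKM, COL1A2 reached 0.00973 and COL5A1 0.0146, and the collagen VI genes COL6A1, COL6A2 and COL6A3 stayed at or under 0.00877. SPARC, a collagen-binding matricellular protein common in fibroblasts and endothelium, measured 0.0538 to 0.192 RPKM. HSPG2 was listed at 0.361, 0.502 and 0.598 RPKM in DMSO.

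The chemical experiment asked what 3 days of DZNep did to these genes. The 3 tested β chains of laminin and the type IV collagen genes COL4A2 and COL4A5 were lower, and COL4A1 alone among the tested members was called higher. Of 16 tested members 1 rose and 7 fell at an adjusted p under 0.05 (limma on log2(RPKM + 1), Benjamini-Hochberg adjustment over all 11143 genes). Over all tested genes 16.6% rose and 11.1% fell, 27.7% in all. Among the falls, COL4A2 and FBLN1 had DZNep means under 1 RPKM (0.888 and 0.914) and passed the filter through their DMSO libraries. The differences of 15 of 16 members were below 0, where 46.9% of all genes were, and the median was -0.23 against 0.01 over all genes. All 3 DZNep libraries lay below all 3 DMSO libraries for 8 members (19.4% of all genes) and above for 1 (26.1%).

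Transcript properties moved with this comparison. Effects over all genes had a Spearman correlation of -0.126 with length and -0.0756 with G+C share. The 2128 tested genes in the top 20% of length, which hold 14 of the 16 members, had a median log2 difference of -0.02. The 217 tested genes in the top 20% of both length and G+C share, a class that holds 8 of the 16 members, had a median log2 difference of -0.12 after DZNep. With the G+C and length correction the calls were 1 rise and 6 falls, against 1850 rises and 2118 falls among 10643 genes. The members' median was then -0.09, against -0.01 over all genes. Without DMSO 1 and DZNep 3 they were 1 rise and 9 falls, against 1975 rises and 1274 falls among 11140 genes. Leaving out DMSO 2 alone gave 1 rise and 4 falls, against 981 and 541 among 11139 genes. With all libraries and no correction 1850 of 11143 genes rose and 1238 fell.

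The laminin β1 chain showed the deepest fall. LAMB1, which pairs with α and γ1 chains in laminins of many tissues, measured 3.46, 4.24 and 4.25 RPKM in DMSO and 1.82, 1.91 and 1.66 in DZNep. No DZNep library came near the lowest DMSO library, and the log2 difference was -0.83 (SE 0.081; limma adjusted p = 5.02e-04). With the G+C and length correction it was -0.82. LAMB2, the alternative β chain of the same trimers, measured 24.3, 25.6 and 27.2 RPKM in DMSO and 20.7, 19.2 and 17.8 in DZNep, again with no overlap (-0.40, SE 0.067; limma adjusted p = 0.00490). LAMB3 of the hemidesmosomal laminin measured 80.3, 78.8 and 73.2 RPKM in DZNep, all below the 91.1 of its lowest DMSO library (-0.32, SE 0.059; limma adjusted p = 0.00766). All 3 β chains kept their calls in every alternative in which they were tested.

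With all libraries the α chains and LAMC1 did not pass. LAMA5 measured 104, 91.0 and 76.1 RPKM in DZNep, and the highest of these exceeded DMSO 1 (92.2), so the groups overlapped (-0.33, SE 0.147; limma adjusted p = 0.124). Without DMSO 1 the difference was -0.48 (adjusted p = 0.0241) and without DZNep 3 it was -0.22 (0.327), and with the G+C and length correction the difference was -0.07 (adjusted p = 0.409). LAMC1 ran from 18.8 to 23.1 RPKM in DMSO and from 17.9 to 21.0 in DZNep (-0.16, adjusted p = 0.218). LAMA3 (18.0 to 23.9 against 19.3 to 21.2 RPKM) overlapped too, with a difference of -0.09. DMSO 1 was the lowest DMSO library for these 3 genes, and without it LAMC1 (adjusted p = 0.0338) and LAMA3 (adjusted p = 0.0270) passed as lower. Without DMSO 1 and DZNep 3 together, LAMA5 (-0.37, limma adjusted p = 0.0217) and LAMA3 (-0.18, 0.0309) passed as lower. LAMC1 (-0.21, limma adjusted p = 0.0535) did not.

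Type IV collagen genes went in opposite directions. COL4A1, which encodes the chain present in 2 copies in the common α1α1α2 trimer, measured 7.94, 7.55 and 7.04 RPKM in DMSO and 10.7, 10.9 and 10.9 in DZNep. All DZNep libraries lay above all DMSO libraries (log2 difference 0.48, SE 0.053; limma adjusted p = 8.17e-04), and the call held in every alternative run. COL4A2, which encodes the partner chain, measured 1.26, 1.44 and 1.37 RPKM in DMSO and 0.910, 0.965 and 0.789 in DZNep (-0.32, SE 0.074; limma adjusted p = 0.0174). Its call was lost without DMSO 2 (adjusted p = 0.0734) and with the G+C and length correction, where the difference was -0.15 (adjusted p = 0.196). COL4A5, the chain of the α3α4α5 and α5α5α6 trimers, measured 7.01, 7.91 and 8.92 RPKM in DMSO and 5.37, 5.21 and 5.31 in DZNep, a narrow range below every control (-0.50, SE 0.077; limma adjusted p = 0.00355). COL4A3 and COL4A4 lay between 0.117 and 0.237 RPKM over all 10 libraries and COL4A6 at or under 0.0364, so partners of the α5 chain were listed far below it.

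COL4A1 and COL4A2 are neighbours on chromosome 8 that are read away from each other, and their promoters overlap, so these windows are shown with those of the β chains LAMB1 and LAMB2, both called lower. Each runs from 250 bases before to 50 after the RefSeq start (build GRCm38.p6, which is not the mm9 build of the submitters' processing notes), 5′ to 3′ on the gene's own strand. Capitals mark matches on either strand. The motifs searched were the GC box, spelled GGGCGG, next the element named for its letters CCAAT, and finally the TATA box, spelled TATAAA. No 2 matches overlap in these windows.
COL4A1, chr8:11312777-11313076, minus strand: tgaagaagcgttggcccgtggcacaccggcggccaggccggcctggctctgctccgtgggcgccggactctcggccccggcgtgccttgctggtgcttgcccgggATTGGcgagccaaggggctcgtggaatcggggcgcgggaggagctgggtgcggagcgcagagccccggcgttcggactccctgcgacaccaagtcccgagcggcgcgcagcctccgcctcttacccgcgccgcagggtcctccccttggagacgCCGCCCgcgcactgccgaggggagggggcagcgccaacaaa
COL4A2, chr8:11312555-11312854, plus strand: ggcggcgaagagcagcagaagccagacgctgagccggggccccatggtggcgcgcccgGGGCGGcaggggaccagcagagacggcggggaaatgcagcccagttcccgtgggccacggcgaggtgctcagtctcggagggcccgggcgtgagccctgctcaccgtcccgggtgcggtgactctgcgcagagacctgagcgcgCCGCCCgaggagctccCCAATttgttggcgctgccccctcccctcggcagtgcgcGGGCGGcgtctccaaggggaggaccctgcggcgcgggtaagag
LAMB1, chr12:31265043-31265342, plus strand: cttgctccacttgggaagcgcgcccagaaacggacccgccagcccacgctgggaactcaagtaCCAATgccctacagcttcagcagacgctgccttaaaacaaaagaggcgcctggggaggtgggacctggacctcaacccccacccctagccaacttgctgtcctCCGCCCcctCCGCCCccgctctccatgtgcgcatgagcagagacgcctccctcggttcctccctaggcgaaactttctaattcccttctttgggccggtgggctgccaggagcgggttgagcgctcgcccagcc
LAMB2, chr9:108479612-108479911, plus strand: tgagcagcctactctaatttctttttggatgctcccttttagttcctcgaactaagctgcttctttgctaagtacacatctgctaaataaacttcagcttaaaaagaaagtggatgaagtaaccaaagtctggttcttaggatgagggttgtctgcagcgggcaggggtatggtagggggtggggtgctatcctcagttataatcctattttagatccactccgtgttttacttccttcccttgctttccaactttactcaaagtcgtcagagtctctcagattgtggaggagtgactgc
The COL4A1 and COL4A2 windows share 78 bases, chr8:11312777-11312854. The RefSeq starts of these genes lie 21 bases apart. The COL4A1 window held 1 GGGCGG and 1 CCAAT, that of COL4A2 3 GGGCGG and 1 CCAAT, and that of LAMB1 2 GGGCGG and 1 CCAAT, while that of LAMB2 held none of these letters. GGGCGG stood in 35.7%, CCAAT in 37.4% and TATAAA in 13.6% of all 32851 promoter windows of this length. Of the 16 windows that RefSeq gives for 12 tested members, 10 held GGGCGG, 7 CCAAT and 1 TATAAA. G+C made up 74% of the COL4A1 window, 73.7% of the COL4A2 window, 63.7% of the LAMB1 window and 44% of the LAMB2 window. A match is a description of letters and not a bound site.

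AGRN and FBLN1 also fell with DZNep, and the remaining members did not pass. AGRN measured 25.6, 30.5 and 32.2 RPKM in DMSO and 25.1, 23.4 and 20.6 in DZNep. The groups did not overlap, but DMSO 1 and DZNep 1 lay close together (-0.34, SE 0.098; limma adjusted p = 0.0377). The AGRN call was lost without DMSO 2 (adjusted p = 0.121), DMSO 3 (0.103), DZNep 2 (0.0892) or DZNep 3 (0.107). FBLN1 measured 1.49, 1.26 and 1.32 RPKM in DMSO and 0.952, 1.02 and 0.770 in DZNep (-0.30, SE 0.082; limma adjusted p = 0.0293). That call was lost without DMSO 1 (adjusted p = 0.0665), DMSO 2 (0.0655), DMSO 3 (0.0621), DZNep 1 (0.0520) or DZNep 3 (0.0727). Like COL4A2, FBLN1 had its DZNep mean under 1 RPKM and passed the filter through its DMSO libraries. COL17A1, the most abundant member, measured 135, 127 and 116 RPKM in DZNep, within the range of DMSO apart from the last (-0.07, SE 0.085; limma adjusted p = 0.580). COL18A1 measured 11.8, 12.3 and 12.3 RPKM against 12.9, 14.1 and 13.5, with no overlap, but missed the threshold (-0.14, adjusted p = 0.0655; 0.0400 without DMSO 1). COL7A1 (2.63 to 3.04 against 2.77 to 3.56 RPKM) and FN1 (3.72 to 4.77 against 3.18 to 5.17) overlapped, with differences of -0.06 and -0.01.

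**Figure D2:**
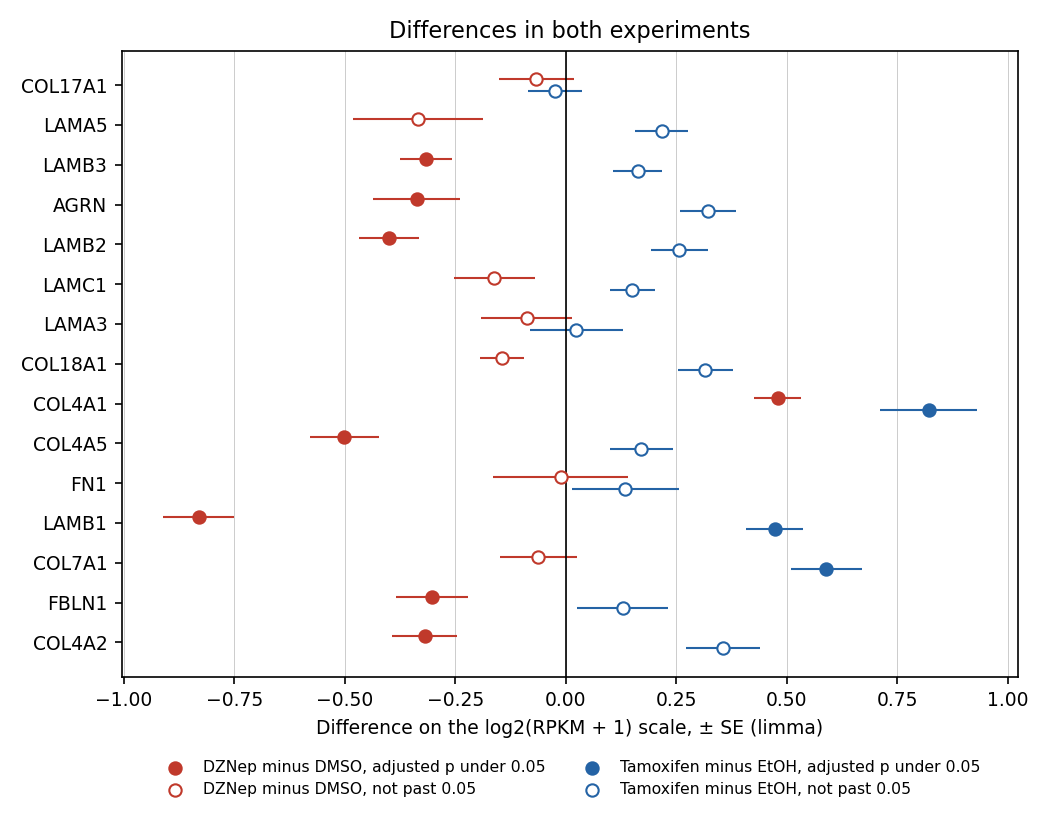
Differences on the log2(RPKM + 1) scale for 15 tested members, DZNep minus DMSO in red and Tamoxifen minus EtOH in blue, with bars of ± SE and filled points for an adjusted p under 0.05. Points for DZNep lie left of 0 except that of COL4A1 (0.48), points for Tamoxifen lie right of 0 except that of COL17A1 (-0.02), and LAMB1 has the widest gap (-0.83 against 0.47).

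The genetic experiment asked the same of Tamoxifen. COL4A1, COL7A1 and LAMB1 were higher, and no member was called lower. Of 16 tested members 3 rose and 0 fell (limma adjusted over 11123 genes), where 0.692% of all genes rose and 1.38% fell (2.07% either way). Before adjustment 10 members had p under 0.05. Here and below, the share of all genes under that level was not counted. Counts before adjustment therefore have no background to be set against. Differences were above 0 for 15 of 16 members and for 59.9% of all genes, with medians of 0.19 and 0.04. Both Tamoxifen libraries lay above both EtOH libraries for 11 members (36.6% of all genes) and below for 0 (23.2%).

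COL4A1 measured 6.85 and 7.74 RPKM in EtOH and 12.3 and 15.1 in Tamoxifen, 1.88 times higher by the means (log2 difference 0.82, SE 0.109; limma adjusted p = 0.0385). COL7A1 measured 2.41 and 2.46 RPKM in EtOH and 4.45 and 3.90 in Tamoxifen (0.59, SE 0.080; limma adjusted p = 0.0395). LAMB1 measured 3.99 and 4.04 RPKM in EtOH and 5.74 and 6.19 in Tamoxifen (0.47, SE 0.064; limma adjusted p = 0.0395). In each of these genes the gap between groups exceeded the gap within them. All 3 calls were nonetheless lost without EtOH 1, Tamoxifen 1 or Tamoxifen 2, fits that leave 1 library in a group. With any single library left out the differences ran from 0.68 to 0.96 for COL4A1, 0.51 to 0.67 for COL7A1 and 0.43 to 0.52 for LAMB1. Without EtOH 2, a fit that also leaves 1 library in a group, they were 0.90, 0.60 and 0.48. The 219 tested genes in the top 20% of both length and G+C share had a median of 0.10, and effects over all genes had a Spearman correlation of 0.384 with G+C share. With the G+C and length correction 0 members passed in limma and 4 had an unadjusted p under 0.05. In that fit 16 of 10627 genes rose and 41 fell, so the count of 0 says nothing particular about the members. The corrected differences of COL4A1, COL7A1 and LAMB1 were 0.67, 0.35 and 0.38 (limma adjusted p = 0.0801, 0.0877 and 0.0784).

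Other members leaned the same way without passing. AGRN went from 27.5 and 30.02 RPKM in EtOH to 36.8 and 35.6 in Tamoxifen (0.32, adjusted p = 0.0713), and COL18A1 from 13.6 and 14.1 to 16.8 and 18.2 (0.32, adjusted p = 0.0711). COL4A2 went from 1.22 and 1.16 RPKM to 1.75 and 1.87 (0.36, adjusted p = 0.0921). Neither group overlapped the other in these 3 genes. LAMB2 (24.8 and 27.0 against 31.8 and 30.4 RPKM; 0.26), LAMA5 (105 and 111 against 128 and 124; 0.22), LAMB3 (97.8 and 102 against 112 and 112; 0.16), LAMC1 (22.8 and 22.6 against 25.3 and 25.4; 0.15) and COL4A5 (7.78 and 8.27 against 9.65 and 8.68; 0.17) were separated too, with adjusted p between 0.105 and 0.211. With the G+C and length correction these differences were closer to 0, at 0.14 for AGRN, 0.19 for COL18A1, 0.20 for COL4A2, 0.13 for LAMB2, -0.07 for LAMA5, 0.06 for LAMB3, 0.02 for LAMC1 and 0.08 for COL4A5. The members' median was then 0.07, against 0.00255 over all genes. COL17A1 (135 and 127 against 131 and 127 RPKM), LAMA3, FN1 and FBLN1 overlapped between the groups, with differences between -0.02 and 0.13.

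**Figure D3:**
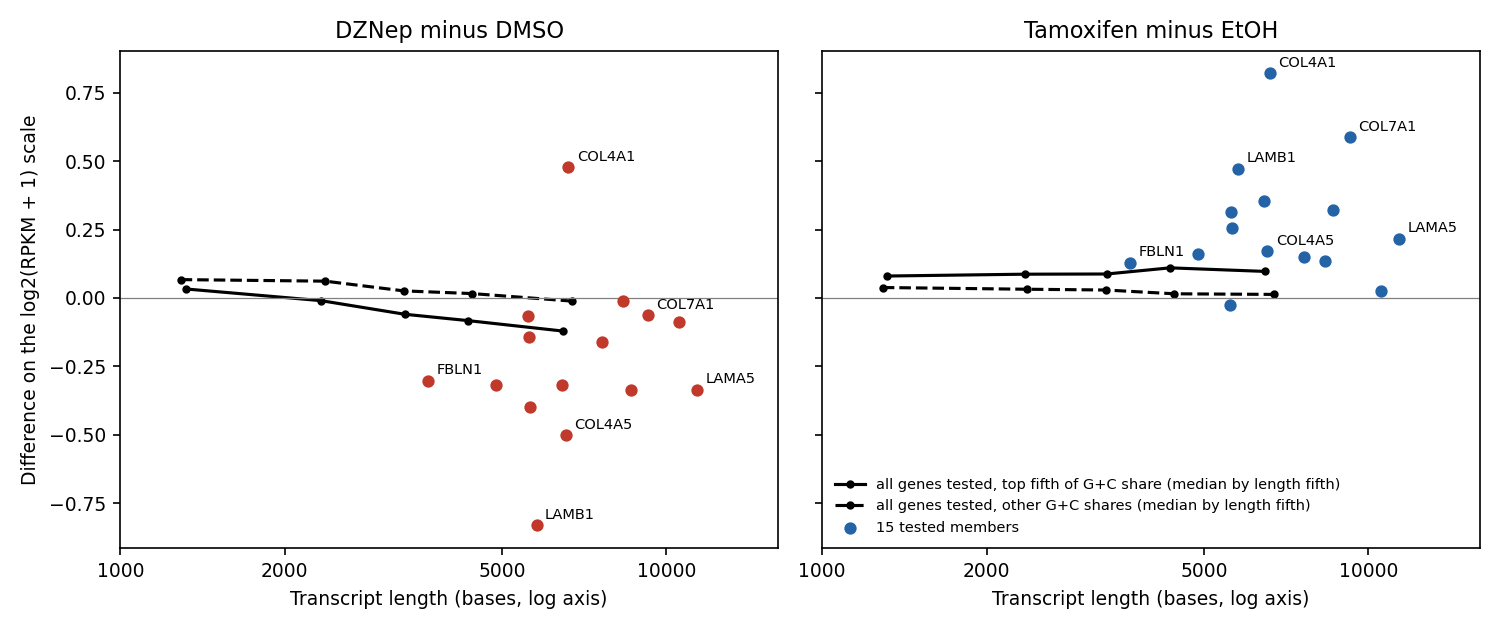
Difference on the log2(RPKM + 1) scale against transcript length (log axis) for 15 tested members (points) and for all tested genes as medians in 5 bins of length, for the top 20% of G+C share (solid line) and in the rest (dashed line). For the longest genes the solid line reaches -0.12 with DZNep and 0.10 with Tamoxifen, and the dashed line -0.01 and 0.01. COL4A1 (0.48 and 0.82) lies far from the solid line. LAMB1 (-0.83 and 0.47), with 52.5% G+C below the top 20%, lies far from the dashed line.

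Whether the effects differed between the experiments was tested in 1 limma fit of all 10 libraries, as the DZNep difference less the Tamoxifen difference. Of 16 members 0 were higher and 9 were lower at an adjusted p under 0.05, where 10.6% and 8.79% of 11155 genes were, and the median was -0.47 against -0.01 (-0.18 with the G+C and length correction). These were LAMB1, LAMB2 and LAMB3 among laminins, COL4A2, COL4A5, COL7A1 and COL18A1 among collagens, and AGRN and FBLN1. LAMB1 differed by -1.30 (SE 0.115; limma adjusted p = 2.07e-04), and it was the only member called in opposite directions in the experiments. COL4A1 rose in both, and the difference of its effects did not pass (-0.34, SE 0.117; limma adjusted p = 0.0682), although it did without Tamoxifen 1 (0.0257). With the G+C and length correction 5 members passed, and COL7A1 (adjusted p = 0.510), COL18A1 (0.297), COL4A2 (0.0600) and FBLN1 (0.0576) did not. The FBLN1 call was also lost without any single library except Tamoxifen 1 (adjusted p = 0.0565 to 0.175), and that of AGRN without EtOH 1 (0.0545) or Tamoxifen 1 (0.0524).

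Ratios between chains of a library, which any scaling of the whole library leaves alone, were separated between DZNep and DMSO for 4 pairs, in a design too small for any of them to pass a test. The ratios were not corrected for G+C share or length, in which paired chains differ (51.7% G+C for LAMA3, 59.9% for LAMA5). On the log2(RPKM + 1) scale, which is not that of the ratios, corrected DZNep differences were -0.009 for LAMA3 and -0.07 for LAMA5 (uncorrected -0.09 and -0.33). They were -0.82 for LAMB1 and -0.29 for LAMB2 (uncorrected -0.83 and -0.40). For COL4A1, COL4A2 and COL4A5 they were 0.59, -0.15 and -0.49 (uncorrected 0.48, -0.32 and -0.50). COL4A1 RPKM were 6.30, 5.26 and 5.14 times those of COL4A2 in DMSO and 11.8, 11.3 and 13.8 times in DZNep, a 2.21-fold higher ratio (log2 1.15; SD 0.160 in DMSO and 0.153 in DZNep, n = 3 each). In EtOH this ratio was 5.599 and 6.65 and in Tamoxifen 7.04 and 8.08. The α5 chain COL4A5 stood at 0.882, 1.05 and 1.27 of COL4A1 in DMSO but at 0.501, 0.477 and 0.486 in DZNep, and at 1.135 and 1.07 in EtOH but 0.784 and 0.575 in Tamoxifen. So that ratio was lower in every treated library than in any control of its experiment.

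Between the exchangeable β chains, LAMB1 measured 0.142, 0.166 and 0.157 of LAMB2 in DMSO and 0.0881, 0.0993 and 0.0933 in DZNep. It measured 0.161 and 0.1495 in EtOH and 0.1805 and 0.203 in Tamoxifen, higher in place of lower. LAMA3 was 0.196, 0.198 and 0.183 of LAMA5 in DMSO and 0.204, 0.228 and 0.254 in DZNep, while Tamoxifen (0.178 and 0.180) overlapped EtOH (0.234 and 0.179). With DZNep each of the 4 ratios had p = 0.1 by exact permutation (two-sided), and 0.1 after Benjamini-Hochberg adjustment over the 4, the smallest that 3 against 3 libraries allow. With Tamoxifen the smallest exact permutation p was 0.333, the least possible for 2 against 2 libraries (adjusted p = 0.444 over the 4 ratios).

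**Figure D4:**
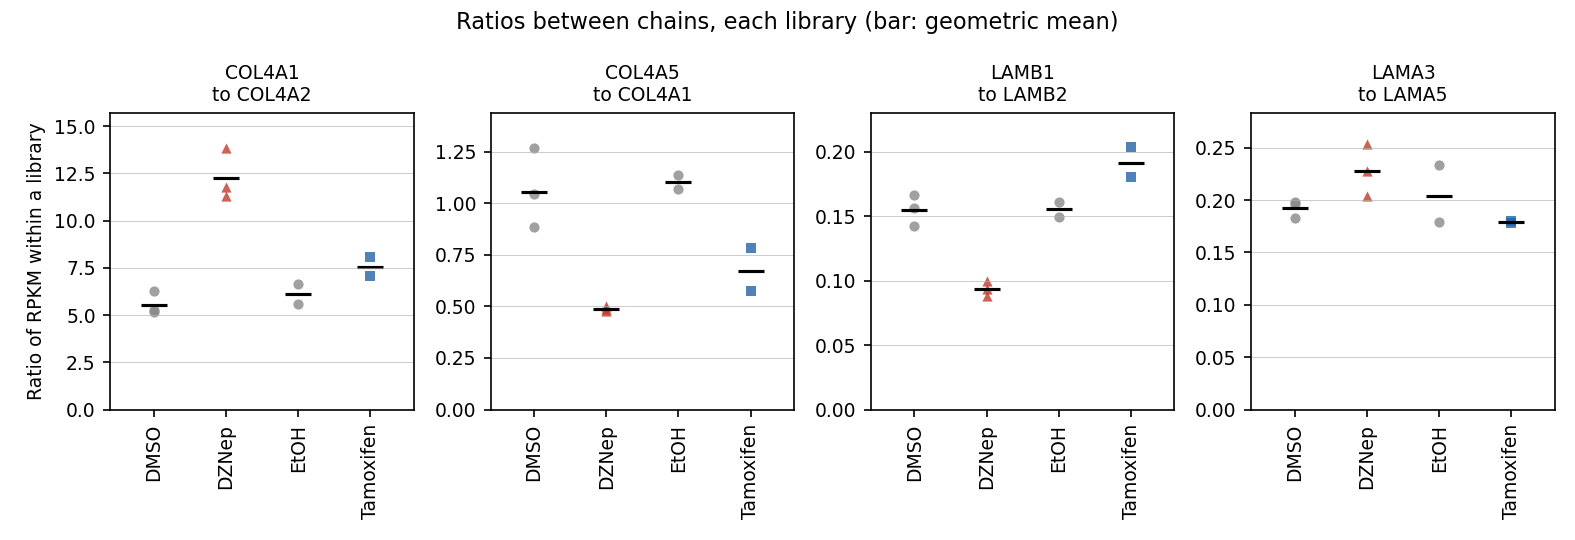
Ratios of RPKM between chain genes within each library (linear axes from 0), by group, with bars for geometric means and n = 3 for DMSO and DZNep and 2 for EtOH and Tamoxifen. DZNep libraries lie above DMSO for COL4A1 to COL4A2 (11.3 to 13.8 against 5.14 to 6.30) and below it for COL4A5 to COL4A1 and LAMB1 to LAMB2.

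Among members under the filter a few were separated between groups, and with no filter on low values some passed. In that DZNep fit 3 of 51 members rose and 9 fell, those above the filter included. Over all 17137 genes 1770 rose and 1200 fell, so a few passes under the filter say nothing particular about the members. COL16A1, a fibril-associated collagen, measured 0.577, 0.534 and 0.569 RPKM in DMSO and 0.241, 0.257 and 0.371 in DZNep (-0.28; limma adjusted p = 0.0116 with no filter). In EtOH it measured 0.436 and 0.535 RPKM and in Tamoxifen 0.922 and 0.946 (0.38, adjusted p = 0.117). HSPG2 had the same pattern, with 0.229, 0.274 and 0.231 RPKM in DZNep, below the 0.361 of its lowest DMSO library (-0.25; limma adjusted p = 0.0373 with no filter). In EtOH HSPG2 measured 0.501 and 0.537 RPKM and in Tamoxifen 0.856 and 0.949. COL9A3, a cartilage-type collagen, went the other way with DZNep, from 0.204, 0.268 and 0.318 to 0.587, 0.595 and 0.725 RPKM (0.37; limma adjusted p = 0.00701 with no filter). COL8A1 went from 0.0550, 0.0160 and 0.0523 to 0.196, 0.182 and 0.116 RPKM (0.16; limma adjusted p = 0.0212 with no filter). COL28A1 was lower with DZNep (-0.10; limma adjusted p = 0.0402 with no filter). With Tamoxifen 0 of the 50 members above 0 passed limma when no filter was applied, and 15 had an unadjusted p under 0.05. In that fit 1 of 16382 genes passed, so the count says nothing particular about the members.

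Among receptors for these proteins, 3 integrin subunits that bind laminin fell with DZNep. Of 26 listed receptor genes 16 were tested, 1 rose and 4 fell, with a median difference of -0.08 against 0.01 over all genes. That count of 5 is near the 27.7% called among all genes. ITGA3, the α3 integrin subunit that binds laminins, measured 112, 127 and 122 RPKM in DMSO and 81.5, 81.5 and 75.7 in DZNep (-0.59, SE 0.062; limma adjusted p = 6.82e-04). ITGA6 and ITGB4, which make the hemidesmosomal integrin, fell by 0.29 and 0.36 on the log2 scale (limma adjusted p = 0.00943 and 0.0295). ITGB1, the common partner of laminin and collagen receptors, measured 125, 141 and 130 RPKM in DMSO and 124, 129 and 137 in DZNep. The receptor count was 2 falls and 0 rises without DMSO 2, DMSO 3, DZNep 2 or DZNep 3, and 3 falls without DZNep 1. With Tamoxifen 0 of 16 receptors passed in the limma fit and 6 had an unadjusted p under 0.05. Only 2.07% of all genes were called there, so the count of 0 says nothing particular about receptors, and it did not hold in every alternative. In the genetic experiment ITGA3 measured 123 and 122 RPKM in EtOH and 140.5 and 152 in Tamoxifen, and ITGA6 49.2 and 52.0 against 50.5 and 51.3. ITGB4 measured 104.5 and 103.6 RPKM in EtOH against 104.7 and 111.8, and ITGB1 144.5 and 133.4 against 136.3 and 135.7.

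Enzymes that modify and cross-link collagen and matrix gave 3 rises and 0 falls among 14 tested with DZNep, where 16.6% of all genes rose and 11.1% fell. TGM2, a transglutaminase that cross-links matrix proteins, went from 24.03, 19.2 and 19.6 RPKM to 42.8, 43.9 and 47.1 (1.06, SE 0.086; limma adjusted p = 2.10e-04). GLT25D1, a collagen galactosyltransferase, rose by 0.22 and PCOLCE, an enhancer of procollagen processing, by 0.27 (limma adjusted p = 0.00966 and 0.0243). Without DMSO 2 only 1 passed, and without DMSO 1 it was 4 rises and 1 fall. In the list of matrix proteases and inhibitors, 3 of 16 rose and 4 fell with DZNep (16.6% and 11.1% of all genes), and without DMSO 2 it was 3 and 0. TIMP3, an inhibitor bound to matrix, went from 4.36, 5.45 and 5.51 RPKM to 11.35, 10.8 and 10.8 (0.98, SE 0.079; limma adjusted p = 2.09e-04). MMP7, a metalloproteinase of glandular epithelium, rose by 0.60 and ADAMTS1, a proteoglycan-cleaving protease, by 0.36 (limma adjusted p = 0.00101 and 0.0104). With Tamoxifen 0 of 15 enzymes and 0 of 16 proteases and inhibitors passed in the limma fit, with 7 and 5 at an unadjusted p under 0.05. In that fit 2.07% of all genes were called, so counts of 0 say nothing particular about these lists. Without EtOH 2 it was 1 enzyme, and without EtOH 1 or EtOH 2 it was 2 proteases or inhibitors.

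Other matrix proteins, a list of 40 genes with 13 tested, gave 5 rises and 2 falls with DZNep, beside the same 16.6% and 11.1% over all genes. SPON2, a secreted adhesion protein, went from 3.68, 3.19 and 3.33 RPKM to 9.09, 8.81 and 10.2 (1.24, SE 0.070; limma adjusted p = 3.00e-05). DCN, a small collagen-binding proteoglycan, went from 3.315, 2.54 and 2.44 to 5.73, 5.68 and 6.92 RPKM (0.92; limma adjusted p = 8.99e-04), and CTGF, a matricellular growth factor, rose by 0.65 (limma adjusted p = 7.64e-04). With Tamoxifen, where 0.692% of all genes rose and 1.38% fell, 0 of the 13 fell and 1 rose. That was SPON2, at 4.10 and 3.65 RPKM in EtOH and 7.05 and 8.39 in Tamoxifen (0.84, SE 0.097; limma adjusted p = 0.0330), a call lost without Tamoxifen 1 (adjusted p = 0.0564) or Tamoxifen 2 (0.163).

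Sums of several lists of cell type markers differed between treated and control libraries. Beside the counts below, 16.6% of all genes rose and 11.1% fell with DZNep, and 0.692% and 1.38% with Tamoxifen. The 12 basal epithelial markers summed to 5603 to 5891 RPKM in DMSO and 7501 to 7728 in DZNep, where 8 rose and 1 fell, and to 5833 to 6277 in EtOH and 4577 to 4711 in Tamoxifen, where 1 rose and 2 fell (0 without Tamoxifen 1 or Tamoxifen 2, 5 called without EtOH 1 and 6 without EtOH 2). KRT5 measured 2030 to 2079 RPKM in DMSO and 2748 to 2758 in DZNep, and the basal transcription factor TRP63 measured 43.5 to 51.2 and 44.7 to 48.0. So much of the basal sum was KRT5, while TRP63 overlapped between DMSO and DZNep. The 12 luminal markers summed to 5673 to 5952 RPKM in DMSO and 6163 to 6387 in DZNep, where 4 rose, 0 fell and the median difference was -0.01, and to 5644 to 6033 in EtOH and 4812 to 5079 in Tamoxifen, where 0 rose and 2 fell. Among them KRT8 measured 152 to 162 RPKM in DMSO and 197 to 221.5 in DZNep. The 10 immune markers, 3 of them tested, summed to 45.95 to 50.75 RPKM in DMSO and 61.8 to 63.4 in DZNep, and to 49.7 to 53.0 in EtOH and 65.3 to 69.7 in Tamoxifen, with 1 rise in each experiment. The luminal and immune counts with DZNep were near the 27.7% called among all genes. The 16 fibroblast and smooth muscle markers summed to only 3.14 to 4.40 RPKM in DMSO and 8.58 to 9.73 in DZNep. Nearly all of that was DCN and ACTA2 (0.881, 0.790 and 0.404 against 2.83, 2.51 and 2.51 RPKM), while 6 of the 16 were at 0 throughout the chemical experiment and PDGFRA stayed at or under 0.0340. The 10 endothelial markers summed to 0.408 to 0.739 RPKM across the chemical experiment, with PECAM1 at 0.128 to 0.445 and CDH5 at 0. In bulk libraries fewer cells of a type and less RNA per cell cannot be told apart. The part of these markers in the results for collagens and laminins was not tested.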

How the data were processed

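Expression was measured by RNA-seq in 10 organoid libraries (poly-A RNA, TruSeq Stranded mRNA libraries from 500 ng, per the labels' protocols). The authors deposited log2 RPKM tables, one for each experiment, and read depth is unknown. The submitters' processing notes name STAR, Cufflinks, bcl2fastq 2.18 and mm9, with no roles. Deposited log2 values were turned back to RPKM, whose totals ran from 469455 to 512726 per library, with 15021 to 15404 genes above 0. Date-like symbols and empty rows were left out. Testing required a mean RPKM of 1 or more, and was done on log2(RPKM + 1) in limma 3.58.1 (R 4.3.3) with a mean trend and Benjamini-Hochberg adjustment over all genes. This scale understates the change of low genes. The 2 tables were fitted separately, except for the difference of effects. Chain ratios were compared by exact permutation. Scripts were tested on simulated data.

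Values in every library are given for 15 of the 16 tested members (1 is counted in the totals and not reported here), with full statistics for those called and for the 3 most abundant. From each pathway list and experiment up to 3 called genes of smallest adjusted p were named, with ITGA6, ITGB4, ITGA3, ITGB1 and 7 marker genes in any case. Members, lists and tests were chosen with earlier results of these data known. COL16A1, HSPG2, COL9A3, COL8A1 and COL28A1 were named after their values were seen. All 62 members matched the RefSeq gene table and 45 a RefSeq promoter. The correction for G+C share and length, and leaving out DMSO 1 with DZNep 3, were chosen after seeing the data. Other alternatives were another pseudocount (0.1), no filter or a filter of 5 RPKM, quantile and trimmed mean scaling, no mean trend, a robust variance prior, a joint fit, a replicate block and each library left out.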

Additional observations from a re-analysis of the deposited data

Results flagged for a closer look

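The effects of DZNep and Tamoxifen differed for 9 members, each by a limma test of the difference itself over 10 libraries (DZNep effect less Tamoxifen effect, log2(RPKM + 1), adjusted over 11155 genes). Over all genes 10.6% were higher and 8.79% lower in this test. Among laminin chains the difference was -1.303 for LAMB1 (adjusted p = 0.000207), -0.657 for LAMB2 (0.00288) and -0.4795 for LAMB3 (0.00546). Among collagens it was -0.6749 for COL4A2 (adjusted p = 0.00374), -0.6714 for COL4A5 (0.0052), -0.6507 for COL7A1 (0.00944) and -0.4599 for COL18A1 (0.0043). AGRN differed by -0.6588 (adjusted p = 0.0135) and FBLN1 by -0.4316 (0.0482). The AGRN difference lost its call without EtOH 1 (adjusted p = 0.0545) or Tamoxifen 1 (0.0524). The FBLN1 difference kept its call in 4 of 19 alternatives and lost it without any single library except Tamoxifen 1 (adjusted p = 0.0565 to 0.175). With the G+C and length correction COL7A1 (limma adjusted p = 0.510), COL18A1 (0.297), COL4A2 (0.0600) and FBLN1 (0.0576) lost their calls. The agents, vehicles and tables differ between the experiments, so these cannot be told apart from the way EZH2 was targeted.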

How the results depend on the processing

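Members called with DZNep numbered 8, and 5 with a filter of 5 RPKM, where 11 members were tested. Leaving out 1 library gave 5 to 11, where over all genes rises ran from 981 to 2092 and falls from 541 to 1267. With Tamoxifen the 3 calls became 5 in the joint fit or with a robust variance prior, 1 with a filter of 5 RPKM, 0 with no filter and 0 with the G+C and length correction, and 0 to 5 with 1 library left out. The 9 differences of effects became 5 with a filter of 5 RPKM or the G+C and length correction, and 7 to 10 with 1 library left out. The causes were not tested. Deviations of same-numbered libraries had correlations of 0.0591, 0.059 and -0.0675 with DZNep and 0.04 with Tamoxifen, which does not settle whether samples were paired. With a replicate block the members called were 5 with DZNep, 5 with Tamoxifen and 7 for the difference. In the same order that block gave 1016 rises and 594 falls, 429 and 449, and 651 and 479 over all genes. Some differences that were not called changed sign. With the G+C and length correction COL17A1 (0.0049), COL18A1 (0.0079), FN1 (0.058) and COL7A1 (0.21) turned positive with DZNep. With Tamoxifen it turned LAMA5 (-0.067), LAMA3 (-0.13) and FN1 (-0.0094) negative. In the difference of effects it turned COL17A1 (0.15), LAMA3 (0.11) and FN1 (0.059) positive. LAMA3 with Tamoxifen was -0.000642 under quantile and -0.00683 under trimmed mean scaling. With 1 library left out, ranges that crossed 0 with DZNep were -0.194 to 0.0879 for FN1, -0.116 to 0.0218 for COL7A1 and -0.0570 to 0.0278 for ITGB1. With Tamoxifen they were -0.0675 to 0.0191 for COL17A1, -0.125 to 0.173 for LAMA3, -0.00807 to 0.277 for FN1 and -0.387 to 0.000186 for the LAMA3 to LAMA5 ratio. In the difference of effects they were -0.123 to 0.0154 for COL17A1 and -0.262 to 0.0364 for LAMA3. Over all genes DZNep gave 1850 rises and 1238 falls, and 1635 of each under quantile normalization. Tamoxifen gave 77 rises and 153 falls over all genes, 452 and 563 in the joint fit and 261 and 385 with a robust variance prior. It gave 1 rise and 0 falls with no filter, and 16 and 41 with the G+C and length correction.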
